A study of Homo sapiens with 6 samples.

Results

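The actin-regulating genes described here are 8 of the 23228 genes in the count tables. They are the plastins LCP1, PLS1 and PLS3, the glia maturation factors GMFB and GMFG, and 3 type I coronins, CORO1A, CORO1B and CORO1C. They were taken by symbol, and the set was chosen with the measured difference between control and PELP1-KD libraries in view, so the differences between groups for these 8 genes are given as a description, with no p-value. Within each family 1 gene is best known from leukocytes (LCP1, GMFG and CORO1A, the leukocyte forms below), and the other 5 genes are its more broadly expressed paralogs. The libraries came from MDA-MB-231, an established human triple negative breast cancer (TNBC) line of mesenchymal appearance grown in RPMI medium with fetal bovine serum. The 3 control libraries came from cells stably carrying a non-targeted shRNA, and the 3 PELP1-KD libraries from cells stably carrying a lentiviral shRNA against PELP1, a coregulator of nuclear receptors that also acts in ribosome assembly. Both lines were kept by puromycin selection, and 1 shRNA against PELP1 was used. Nothing in the labels says that the replicates were separate transductions, so the spread between them may be technical.

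Plastins, also called fimbrins, tie actin filaments into tight parallel bundles. LCP1 (L-plastin) is made in blood cells and also in many carcinoma lines, PLS1 (I-plastin) belongs to the microvilli of gut and kidney epithelium and to hair-cell stereocilia, and PLS3 (T-plastin) is found in most solid tissues. Glia maturation factors are small proteins of the ADF/cofilin fold that bind the Arp2/3 complex, the nucleator of branched actin, and take branches apart. GMFB is found in most tissues including brain, and GMFG mainly in blood cells and endothelium. Type I coronins bind actin filaments and the Arp2/3 complex: CORO1A is needed for the survival and migration of T cells, and CORO1B and CORO1C act at the leading edge of many other cell types.

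Between 17304864 and 23132102 reads per library were counted on genes. PELP1 itself was measured at 57.2, 56.1 and 60.2 CPM (reads scaled by library size with the TMM factors of edgeR) in the control libraries and at 28.6, 29.9 and 30.3 CPM in the PELP1-KD libraries, so each library followed its label. All 6 genes typical of MDA-MB-231 that were read were plentiful, with mean levels from 111 CPM for EGFR in PELP1-KD cells to 2221 CPM for VIM in control cells. In PELP1-KD cells 5 of the 6 fell (83.3%), beside 24.2% of all tested genes, and MSN did not pass. CD44 had a log2 fold change (log2FC) of -0.55, CAV1 -0.30, EGFR -0.26, VIM -0.21 and AXL -0.13. What part these decreases have in the results below was not tested. Of 6 genes held to be low or absent in this line, ESR1, PGR and CDH1 averaged under 0.1 CPM in both groups. FOXA1 was at 0.974 and 0.191 CPM in control and PELP1-KD cells (log2FC -2.37, adjusted p = 0.00051 in edgeR). It rested on 11, 26 and 20 reads in the control libraries and on 7, 0 and 5 in the PELP1-KD libraries. GATA3 at 6.98 and 8.08 CPM and EPCAM at 9.46 and 9.57 CPM were low but present.

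The leukocyte forms lie on chromosomes 13, 19 and 16. In GENCODE 29 on GRCh38, LCP1 spans chr13:46125920-46211871 on the minus strand, GMFG spans chr19:39328353-39342372 on the minus strand, and CORO1A spans chr16:30182827-30189076 on the plus strand. The broad paralogs are elsewhere: PLS1 at chr3:142596387-142713664, PLS3 at chrX:115561174-115650861, GMFB at chr14:54474484-54489196, CORO1B at chr11:67435510-67443821 and CORO1C at chr12:108645109-108731596. No family has its members next to each other. These coordinates come from the annotation, not from the count tables, which were made on hg19 and give symbols only.

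The proximal promoters of the 3 leukocyte forms and of PLS3, the most highly expressed plastin in control cells per base of transcript, are printed below. They were chosen after the motif matches were seen. GAGGAA, 1 of 6 searched motifs, was in the promoters of all 3 leukocyte forms and in no paralog promoter read. GMFB, the only paralog of GMFG, had no promoter to read, so this contrast covers the plastins and coronins only. Each printed promoter is a RefSeq window on GRCh38.p14 from 250 bases before to 50 bases after a transcription start, written 5′ to 3′ on the strand of the gene. Capitals mark matches, on either strand, to a purine-rich motif (GAGGAA), a GC-box motif (GGGCGG) and a TATA-box motif (TATAAA), and no match overlaps another. The LCP1 window is chr13:46182128-46182427 (minus strand), the GMFG window chr19:39335994-39336293 (minus strand), the CORO1A window chr16:30183352-30183651 (plus strand) and the first PLS3 window chrX:115560924-115561223 (plus strand).
LCP1: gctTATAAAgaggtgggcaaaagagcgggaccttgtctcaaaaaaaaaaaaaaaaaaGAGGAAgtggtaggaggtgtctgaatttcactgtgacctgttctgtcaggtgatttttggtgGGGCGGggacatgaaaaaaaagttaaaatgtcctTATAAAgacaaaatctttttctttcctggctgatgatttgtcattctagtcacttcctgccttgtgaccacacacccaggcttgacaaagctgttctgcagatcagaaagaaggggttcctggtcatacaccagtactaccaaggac
GMFG: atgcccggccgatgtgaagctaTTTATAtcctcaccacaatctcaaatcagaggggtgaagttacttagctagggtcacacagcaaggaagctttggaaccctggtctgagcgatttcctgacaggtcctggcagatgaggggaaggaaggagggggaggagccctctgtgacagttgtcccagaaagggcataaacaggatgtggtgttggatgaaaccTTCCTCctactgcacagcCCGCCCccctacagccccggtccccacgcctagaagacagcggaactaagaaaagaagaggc
CORO1A: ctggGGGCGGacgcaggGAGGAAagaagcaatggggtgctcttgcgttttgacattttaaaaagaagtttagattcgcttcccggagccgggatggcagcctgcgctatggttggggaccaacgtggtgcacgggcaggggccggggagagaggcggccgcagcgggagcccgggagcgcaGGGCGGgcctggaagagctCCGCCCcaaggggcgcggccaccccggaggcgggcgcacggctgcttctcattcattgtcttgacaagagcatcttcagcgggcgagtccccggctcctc
PLS3: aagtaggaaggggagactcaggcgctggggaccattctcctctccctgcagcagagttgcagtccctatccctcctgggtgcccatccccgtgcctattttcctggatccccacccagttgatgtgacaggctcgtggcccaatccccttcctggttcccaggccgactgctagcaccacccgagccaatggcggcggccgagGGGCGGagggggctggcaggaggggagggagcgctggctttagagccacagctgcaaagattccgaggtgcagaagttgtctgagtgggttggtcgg
GAGGAA occurred 1 time in each of the LCP1, GMFG and CORO1A windows. It occurred in none of the 9 windows of PLS1, PLS3, CORO1B and CORO1C, and GMFB was not matched to a window. Of all 35116 RefSeq promoter windows of this length, 27.9% held it, so a match is common. GGGCGG, held by 45.0% of all windows, was in the windows of all 3 leukocyte forms, and TATAAA, held by 11.5%, was in those of LCP1 (2 matches) and GMFG (1 match). In the 9 paralog windows GGGCGG occurred in 5, among them the first window of each of the 4 genes, and TATAAA in none. The ETS motif CCGGAA is held by 17.2% of all windows, the AP-1 motif TGANTCA by 7.71% and the E-box motif CACGTG by 7.26%, and none of the 3 windows held any of them. CCGGAA was in the CORO1B window and in 1 CORO1C window, and CACGTG in 1 CORO1C window. The base composition of the 3 windows differed widely. The LCP1 window had 42.7% G and C and 2 CpG dinucleotides, the GMFG window 54.3% and 7, and the CORO1A window 66.0% and 26, against a median of 58.7% and 14 over all windows. A match to a motif is a description of these letters and not a binding site.

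Across the 8 genes, all of which passed the filter on low counts, the 3 leukocyte forms were higher and 4 of the 5 broad paralogs lower in PELP1-KD cells. By the call rule used for all genes, LCP1, GMFG and CORO1A counted as higher (3 of 8), PLS1, PLS3, GMFB and CORO1C as lower (4 of 8), and CORO1B as neither. Among all 12796 genes tested with edgeR at an adjusted p of 0.05, 22.7% were higher and 24.2% lower in PELP1-KD cells. These are 2904 and 3103 genes, a split that turned to 3817 higher and 2418 lower when library totals replaced the TMM scaling. LCP1 and GMFG also exceeded a log2FC of 1, as did 1.9% of all tested genes among those called higher. The levels of the groups did not overlap, with PELP1-KD above control, for 3 of the 8 genes (27% of all tested genes) and with PELP1-KD below control for 4 (28% of all tested genes). Since the 8 genes were chosen on this same contrast, nothing is read from these counts. The median log2FC was -0.09 over the 8 genes and 0.0014 over all tested genes.

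LCP1, the bundling protein of blood cells, measured 154, 146 and 144 CPM in the control libraries, from 2553 to 3319 reads. In the PELP1-KD libraries it measured 591, 596 and 596 CPM, from 11528 to 14038 reads. All 3 PELP1-KD libraries lay far above all 3 control libraries. Around means of 148 and 595 CPM the SD was 5.62 and 2.74 CPM (n = 3 each), and the 4.02-fold difference is a log2FC of 2.01 (standard error 0.033). Of all tested genes, 99.7% had a lower log2FC. In bulk RNA, more RNA in every cell and a larger proportion of cells with high LCP1 cannot be told apart, here and for the genes below.

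The other plastins were lower in PELP1-KD cells. PLS1 measured 61.0, 53.2 and 52.0 CPM in control libraries and 42.9, 41.7 and 45.1 CPM in PELP1-KD libraries. The groups did not overlap, with control replicate 1 above the other controls, and the log2FC was -0.35 (standard error 0.061), a change of -21.7%. PLS3 measured 245, 246 and 230.0 CPM in control libraries and 218, 211 and 217 CPM in PELP1-KD libraries. Its groups were also separate but close together, with a log2FC of -0.16 (standard error 0.035), a change of -10.4%.

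**Figure D1:**
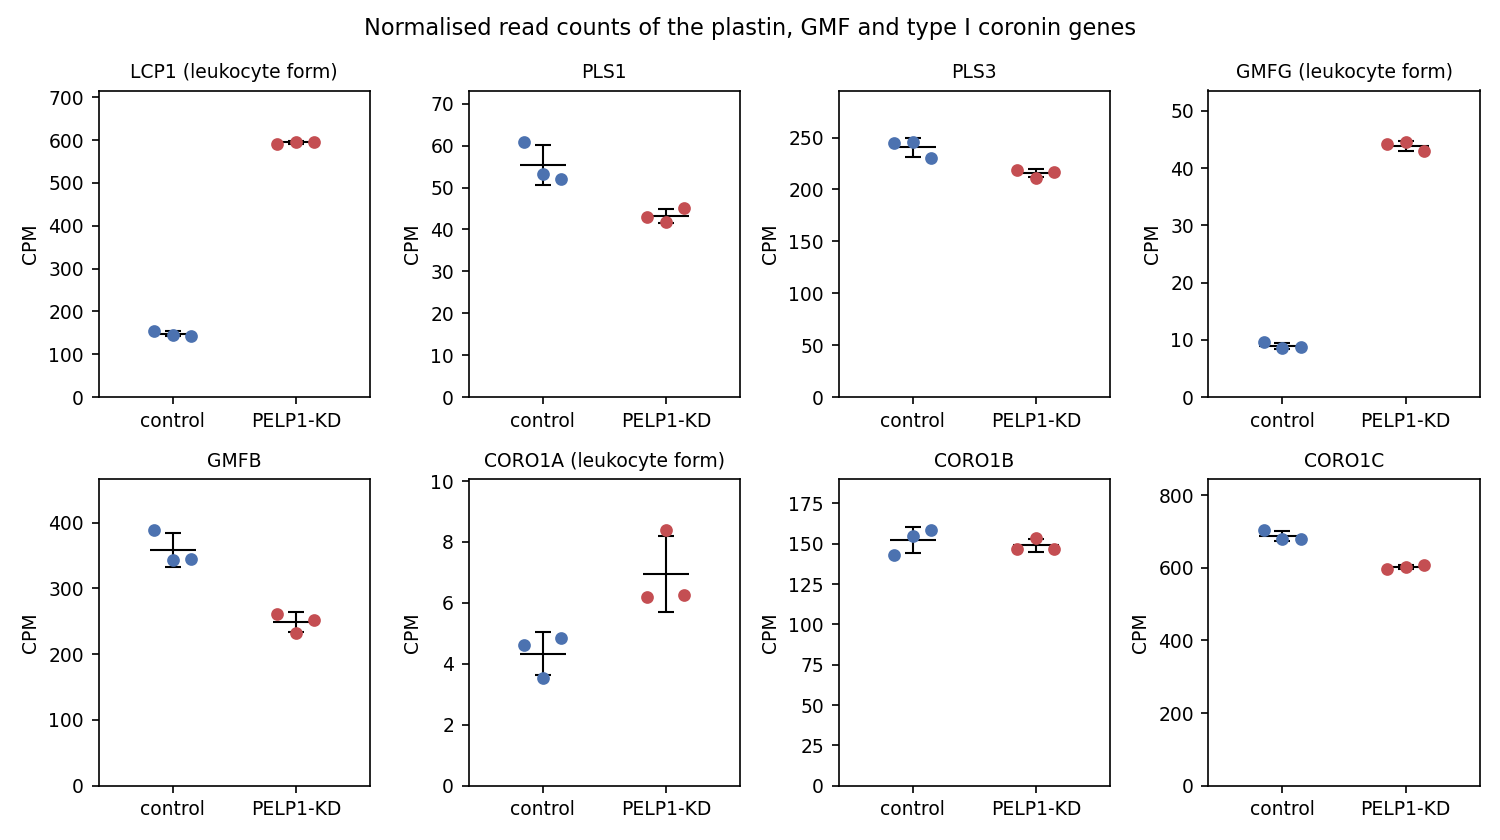
Normalised read counts (CPM, linear axes from 0, a separate scale in each panel) of the 8 genes in the 3 control and 3 PELP1-KD libraries. Points are libraries, horizontal bars the mean and error bars the SD; the LCP1 panel runs from about 148 CPM in control to 595 CPM in PELP1-KD cells, and only the CORO1B groups overlap.

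The glia maturation factors moved in opposite directions. GMFG, the blood-cell form, measured 9.58, 8.54 and 8.79 CPM in control libraries, from 156 to 194 reads. It measured 44.2, 44.6 and 43.0 CPM in PELP1-KD libraries, from 862 to 1011 reads. The PELP1-KD libraries were closely grouped at about 4.91 times the control level, with a log2FC of 2.30 (standard error 0.071). GMFB measured 389, 343 and 345 CPM in control libraries and 262, 232 and 252 CPM in PELP1-KD libraries. All PELP1-KD values were below all control values, although control replicate 1 stood above the other controls, and the log2FC was -0.53 (standard error 0.046), a change of -30.7%. GMFB was the member with the greatest decrease.

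Of the type I coronins, CORO1A was higher and CORO1C lower in PELP1-KD cells. CORO1A measured 4.61, 3.52 and 4.84 CPM in control libraries and 6.21, 8.39 and 6.25 CPM in PELP1-KD libraries. These levels rest on 78 to 179 reads, in each library fewer than for any other member, and PELP1-KD replicate 2 stood above the other PELP1-KD replicates. The groups did not overlap, and the log2FC was 0.70 (standard error 0.15). CORO1B measured 143, 155 and 158 CPM in control libraries and 147, 154 and 147 CPM in PELP1-KD libraries, groups that overlapped. Its log2FC of -0.03 (standard error 0.041) was smaller than its standard error and changed sign when library totals replaced the TMM scaling. CORO1C, the member with the highest level, measured 704, 679 and 679 CPM in control libraries and 597, 602 and 607 CPM in PELP1-KD libraries. Its groups were separate, with a log2FC of -0.19 (standard error 0.027), a change of -12.4%.

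**Figure D2:**
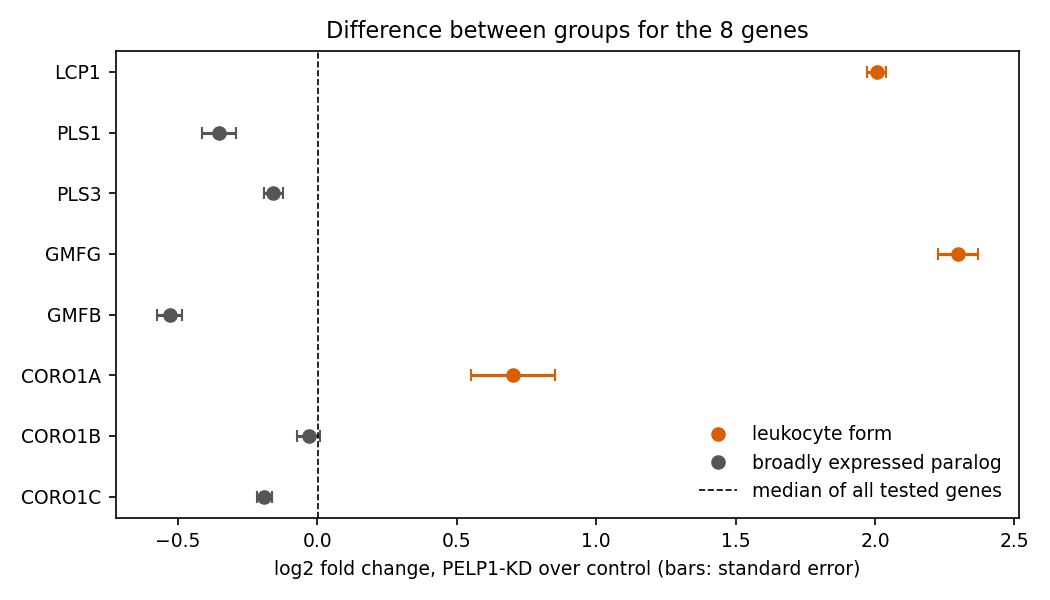
Log2FC of the 8 genes (PELP1-KD over control) with standard errors from edgeR; the dashed line is the median of all tested genes. The 3 leukocyte forms lie between 0.70 and 2.30, and the 5 broad paralogs between -0.53 and -0.03.

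Reads can be shared between similar or overlapping genes, so this was checked in the annotation. Coding sequences within a family were 68.8% to 74.7% identical in pairwise alignments, and no stretch of 50 bases was shared between transcripts of any 2 of the 8 genes. CORO1A shares sequence with other genes, however. Of its 1754 stretches of 50 bases, 272 (15.5%) also occur in transcripts of another gene, 172 of them in AC012645.3, an antisense gene overlapping 541 of its exon bases. By that symbol AC012645.3 was not among the counted genes, and its part in the CORO1A reads was not tested. CORO1B shares 1292 exon bases on the same strand with PTPRCAP, which itself had 12 to 25 reads per library. Reads from such shared stretches cannot be assigned with certainty, and whether the counting used the strand is not given in the sources used here.

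Levels of different genes were compared as RPKM, the CPM divided by the transcript length in kilobases. In control cells CORO1C was highest at 177 RPKM, followed by GMFB at 83.5, CORO1B at 78.8 and PLS3 at 73.3 RPKM. The ranges of GMFB and CORO1B overlapped, as did those of CORO1B and PLS3, so the order of these neighbours is not resolved. LCP1 came next at 37.6 RPKM ± 1.42 (SD, n = 3), ahead of PLS1 at 14.8, GMFG at 11.8 and CORO1A at 2.40 RPKM. In PELP1-KD cells LCP1 stood second at 151 RPKM ± 0.694 (SD, n = 3), just below CORO1C at 155 RPKM. CORO1B followed at 77.2 and PLS3 at 65.7 RPKM. GMFG at 58.0 and GMFB at 57.8 RPKM overlapped, and PLS1 at 11.5 and CORO1A at 3.85 RPKM were lowest. The leukocyte forms were thus already expressed in control cells of this epithelial cancer line, CORO1A only at a low level.

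The make-up of each family, which does not depend on how libraries are scaled, followed from these levels. LCP1 made up 30.1%, 29.3% and 30.3% of plastin RPKM in the control libraries and 65.8%, 66.7% and 65.9% in the PELP1-KD libraries. LCP1 was thus behind PLS3 in control cells and ahead of it in PELP1-KD cells: the ratio of LCP1 to PLS3 reads went from between 0.594 and 0.630 to between 2.71 and 2.82. The summed plastin level went from 126 RPKM ± 4.88 to 228 RPKM ± 1.44 (SD, n = 3), a ratio of 1.82.

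GMFG made up 12.3%, 12.4% and 12.6% of glia maturation factor RPKM in control libraries and 49.0%, 52.2% and 49.1% in PELP1-KD libraries. Because the GMFG transcript is 758 bases long and that of GMFB 4301, these shares depend on length scaling: in reads alone the mean share was 2.44% in control and 15.1% in PELP1-KD cells. The log2 ratio of GMFG to GMFB reads, which does not depend on transcript length, differed by 2.82 between the groups. The family sum was 95.3 RPKM ± 6.68 in control and 116 RPKM ± 3.22 in PELP1-KD cells (SD, n = 3).

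CORO1A stayed a minor part of the 3 coronins in both groups. It made up 0.993%, 0.761% and 1.04% of their summed RPKM in control libraries and 1.48%, 1.95% and 1.47% in PELP1-KD libraries. In reads without length scaling its mean share was 0.512% in control and 0.916% in PELP1-KD cells. The sum of the 3 coronins went from 258 RPKM ± 1.24 to 236 RPKM ± 3.07 (SD, n = 3), and CORO1C supplied most of it.

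**Figure D3:**
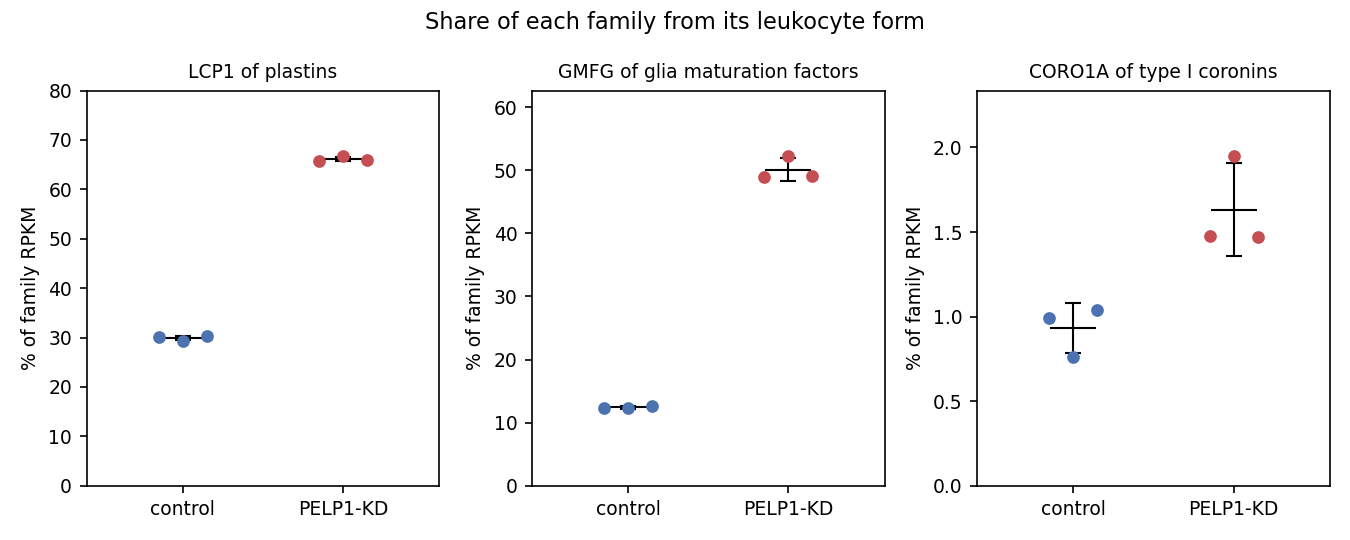
Share of each family's RPKM that comes from its leukocyte form, in percent, per library (points), with mean and SD; each panel has its own scale from 0. LCP1 goes from about 29.9% to 66.1% of the plastins and GMFG from 12.4% to 50.1% of the glia maturation factors. CORO1A stays below 2% of the sum of CORO1A, CORO1B and CORO1C.

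Markers of blood cells were read in the same libraries, since 3 of the 8 genes are best known from leukocytes. Of 25 leukocyte markers, 11 had no read in any library, among them PTPRC (CD45, carried by nearly all leukocytes), the transcription factors SPI1 and IKZF1 and the membrane protein CD53. A count of 0 allows up to 3 reads, which is 0.130 to 0.173 CPM of the reads on genes in these libraries. In all, 18 of the 25 markers were at or under 3 reads in every library. All 25 markers together summed to 42.7 to 45.6 CPM in control libraries and 42.0 to 46.1 CPM in PELP1-KD libraries, and most of that sum was LAPTM5 (a mean of 33.7 CPM in control cells). Only 4 markers could be tested. ITGB2, the beta-2 integrin chain, rose (log2FC 0.79, standard error 0.11, adjusted p = 8.06e-06 in edgeR), and LAPTM5, a lysosomal protein of blood cells, fell (log2FC -0.22, standard error 0.061, adjusted p = 0.00651 in edgeR). CD14 and CSF1R did not pass. LCP1 alone averaged 148 CPM in control and 595 CPM in PELP1-KD cells. Whether blood cells had any part in these levels was not tested.

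Whether other leukocyte forms of actin regulators behaved like LCP1, GMFG and CORO1A was read from 18 further paralog pairs, each a blood-cell form and a broad form. Of the 18 blood-cell forms, 7 were too low to be tested, 4 rose, 3 fell and 4 did not pass. The shares of the 11 tested forms that rose (36.4%) and fell (27.3%) stand beside 22.7% and 24.2% of all tested genes. VAV1, a signalling protein of lymphocytes, rose by a log2FC of 1.47 (standard error 0.36, adjusted p = 0.00212 in edgeR) from a mean of 0.364 to 1.07 CPM, at most 30 reads per library. FERMT3 (kindlin-3, an integrin activator of blood cells) rose by 0.67, DOCK2 (a Rac exchange factor of lymphocytes) by 0.39 and RAC2 (the blood-cell Rac GTPase) by 0.10. The call of RAC2 (adjusted p = 0.0445 in edgeR) was lost in 6 of 13 alternatives, over which its adjusted p ran from 0.00397 to 0.186: in DESeq2, and without any 1 of the 3 control libraries or of PELP1-KD replicates 1 and 2. The remaining called forms kept their calls wherever tested. CYFIP2, a subunit of the WAVE complex, moved the other way, from 3.71 to 1.21 CPM (log2FC -1.61, standard error 0.21, adjusted p = 2.23e-06 in edgeR). ARHGDIB fell (log2FC -0.44), as did the formin FMNL1 (log2FC -0.22).

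The opposed pattern of LCP1 against PLS1 and PLS3, and of GMFG against GMFB, also held for CORO1A against CORO1C but not against CORO1B. How often it occurs over gene pairs in general was not computed. Of the 11 pairs with both genes tested, 2 showed it. These were VAV1 with VAV2 and RAC2 with RAC1, where the broad forms had log2FC of -0.15 and -0.61, the second pair with the unstable call of RAC2. No pair showed the reverse, and the blood-cell form had the higher log2FC in 6 of 11 pairs. AIF1 and BIN2 had no read in any library. Of the 17 broad forms tested, 5 rose (29.4%), 4 fell (23.5%) and 8 did not pass, beside 22.7% and 24.2% of all tested genes. FERMT2 (kindlin-2), VASP (a promoter of filament elongation) and CTTN (cortactin) had the lowest p among those that rose, with log2FC of 0.20, 0.22 and 0.18. RAC1, FMNL2 (a formin, log2FC -0.22) and VAV2 had it among those that fell.

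**Figure D4:**
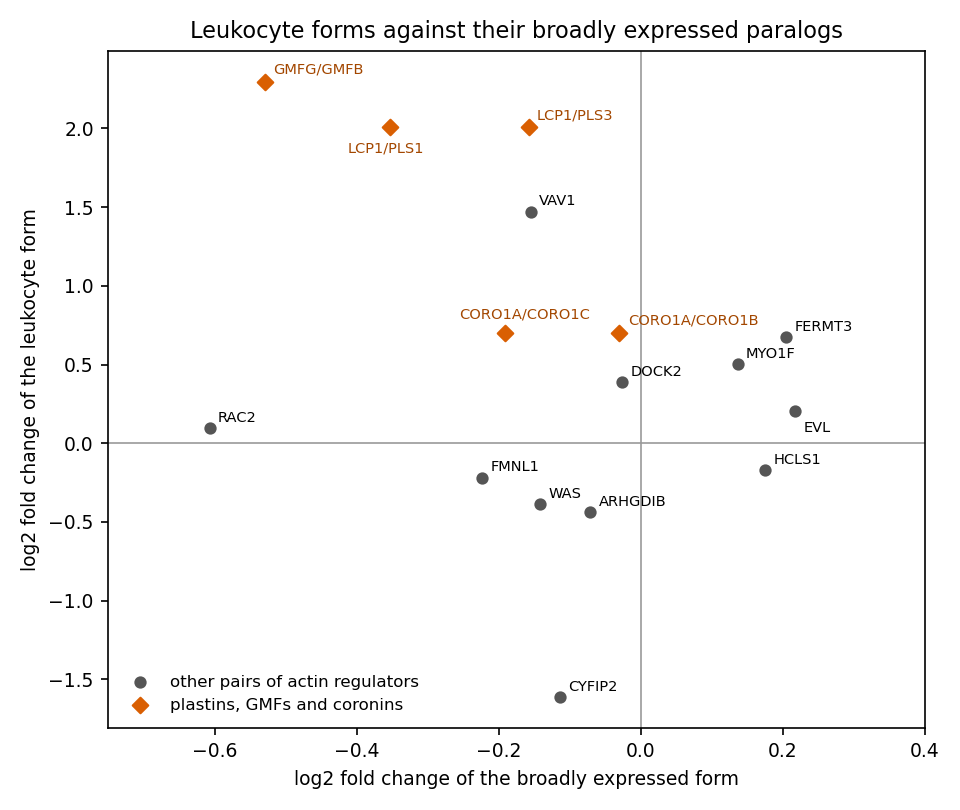
Log2FC (PELP1-KD over control) of blood-cell forms of actin regulators (vertical axis) against that of their broad paralogs (horizontal axis); diamonds are the pairs among the 8 genes and grey points the 11 other pairs with both genes tested, labelled by the blood-cell form. LCP1 and GMFG pairs sit at the upper left, and CYFIP2 lies lowest at -1.61. Among the grey points, VAV1 and RAC2 show a called rise beside a called fall (the rise of RAC2 lost in 6 of 13 alternatives).

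The plastins, glia maturation factors and coronins act with a larger set of actin genes, of which 62 of 74 listed were tested. Of these 17 rose (27.4%), 14 fell (22.6%) and 31 did not pass, near the shares over all tested genes, and their median log2FC was 0.02. With library totals in place of TMM, 24 rose and 10 fell, a shift in the same direction as over all genes. None had a log2FC as high as that of LCP1 or GMFG: the highest was 0.78, for FSCN1.

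Bundling and crosslinking proteins, which work beside the plastins, were 7 higher (63.6%) and 1 lower (9.09%) of 11 tested, beside 22.7% and 24.2% of all tested genes, with a median log2FC of 0.11. FSCN1 (fascin, the bundler of filopodia) averaged 21.7 CPM with an SD of 2.76 in control and 37.4 CPM with an SD of 2.46 in PELP1-KD cells (log2FC 0.78, adjusted p = 8.24e-08 in edgeR). PALLD (palladin) rose by a log2FC of 0.33 and ACTN1 (alpha-actinin 1) by 0.17. SWAP70 fell (log2FC -0.39). FSCN1 thus moved in the direction of LCP1, and unlike PLS1 and PLS3.

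Among the other coronins, CORO2B, a type II coronin, fell from a mean of 7.55 CPM (SD 0.446) to one of 2.33 CPM (SD 0.295), with a log2FC of -1.70 (adjusted p = 3.33e-09 in edgeR), a greater decrease than that of CORO1C. CORO2A rose (log2FC 0.19), CORO7 did not pass, and CORO6 was too low to be tested.

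The Arp2/3 complex is what the glia maturation factors and coronins bind. Of its 11 subunit genes, 1 rose (ACTR3, log2FC 0.08), 2 fell (ACTR2, -0.17, and ARPC3, -0.12) and 8 did not pass; the shares are 9.09% and 18.2%, beside 22.7% and 24.2% of all tested genes. These differences were small beside those of GMFG and GMFB. Of 17 tested activators, which include the WASP and WAVE proteins, 2 rose (11.8%) and 5 fell (29.4%). CTTN rose by 0.18 and BRK1 by 0.14, and CYFIP2, WASF2 (-0.41) and ABI2 (-0.24) had the lowest p among the decreases. Of 3 inhibitors, PICK1 rose (log2FC 0.44) and the others did not pass.

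The cofilin cycle, whose core proteins share their fold with GMFB and GMFG, had 5 of 17 genes higher (29.4%), 5 lower (29.4%) and 7 not passing, beside 22.7% and 24.2% of all tested genes. LIMK1, the kinase that inactivates cofilin, rose by a log2FC of 0.58 (standard error 0.037, adjusted p = 8.33e-11 in edgeR), and PDXP and SSH1, phosphatases that reactivate it, rose by 0.49 and 0.15. TWF1 and TWF2, the twinfilins, fell (log2FC -0.55 and -0.26), and DSTN (destrin) fell (log2FC -0.24). The decrease of TWF1 was about as large as that of GMFB.

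**Figure D5:**
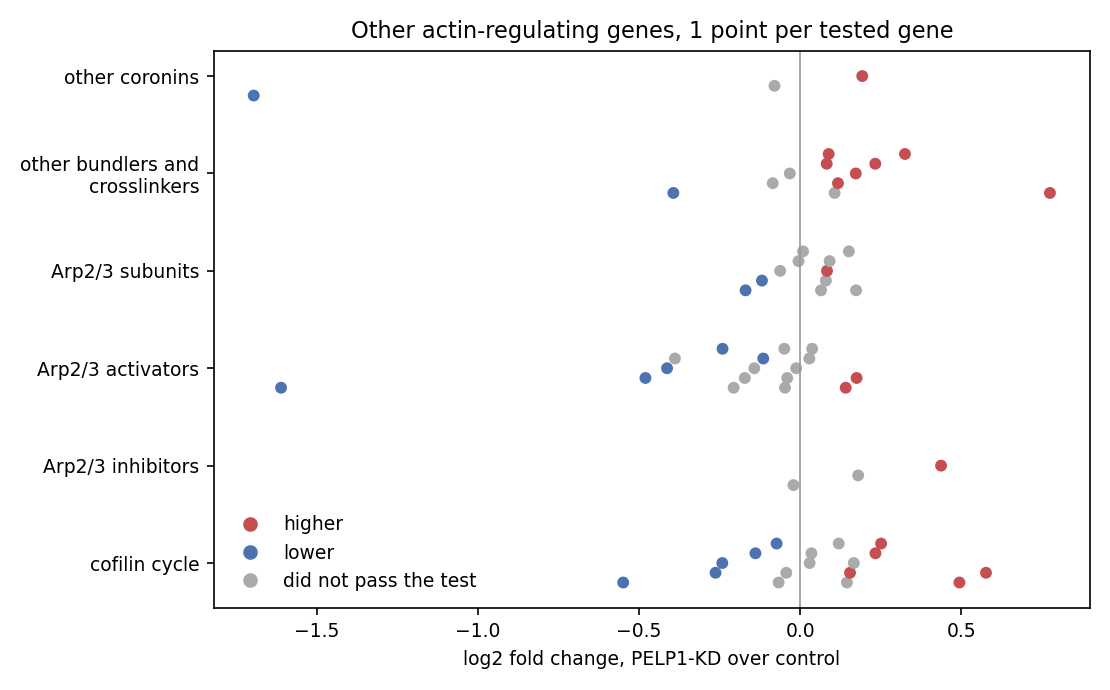
Log2FC (PELP1-KD over control) of the other actin-regulating genes by list, 1 point per tested gene, coloured by whether the gene passed an adjusted p of 0.05 (vertical scatter only separates points). No point reaches the 2.01 of LCP1 or the 2.30 of GMFG; CORO2B at -1.70 and CYFIP2 at -1.61 lie lowest.

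The genes whose pattern over the 6 libraries was most like that of a leukocyte form were found by the Euclidean distance of log2 CPM centred on each gene's mean. The 5 nearest to LCP1 were LTBP2, TRPM2, ZBED2, KIAA1324 and CGN, at distances from 0.170 to 0.305 on the log2 scale. GMFG was eighth at 0.347. For GMFG the nearest were VCAN, PTGS2, LTBP2, LCP1 and DMKN, at 0.320 to 0.358. The 5 nearest to CORO1A were LNX1, PTP4A3, VPS37D, SLC15A3 and PTPRU, at 0.220 to 0.283, and LCP1 was far off at 1.70. LTBP2, the gene nearest to LCP1, measured 21.4 CPM ± 0.973 in control and 88.5 CPM ± 1.94 in PELP1-KD cells (SD, n = 3). With 2 groups and 6 libraries, such likeness mostly reflects a similar log2FC.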

How the data were processed

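Total RNA of 6 MDA-MB-231 libraries (3 control, 3 PELP1-KD) was made into stranded TruSeq mRNA libraries. The deposited values are raw counts of reads per gene, which the authors made with TopHat2 and HTSeq on hg19 (bcl2fastq and SAMtools are also named in the submitters' processing notes); versions, gene annotation and strand setting are not given in the sources used here. Counts on genes ranged from 17304864 to 23132102 per library. Rows of reads not assigned to a gene were left out of the totals: 7.64% to 8.19% had no feature, 0.657% to 0.688% were ambiguous and 32.5% to 32.9% were not uniquely aligned, of everything listed in those tables. Reads from stretches that occur in several places of the genome are therefore missing from the counts.

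Differences were fitted over all genes with edgeR 4.0.16 (R 4.3.3) by its quasi-likelihood test with TMM scaling, after filterByExpr (minimum count 10), with Benjamini-Hochberg adjustment over the 12796 genes tested. A gene was called at an adjusted p of 0.05. Standard errors were obtained from the log2FC and the F statistic of each gene. CPM used TMM-scaled library sizes, and RPKM the length of the longest principal transcript in GENCODE 29 (GRCh38). Alternatives were RLE size factors, library totals, DESeq2 1.42.0, limma 3.58.1 (voom), no filter, 10 counts in every library, a replicate block, and leaving out each library.

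The 8 genes, the gene lists and the paralog pairs were chosen with earlier results of these data known. All 8 genes were named. In each list, up to 3 genes with the lowest p in each direction were named, and for the leukocyte forms of the pairs the largest called changes. For LCP1, GMFG and CORO1A, the 5 genes nearest in pattern and 3 coding neighbours on each side were also named. EGFR, AXL, MSN, ESR1, PGR, CDH1, GATA3, EPCAM, RAC2, AIF1, BIN2, CD14, CSF1R, CORO6, CORO7 and marker genes at 0 were named in addition, after their values were seen. Promoter windows came from RefSeq (GRCh38.p14), where 7 of the 8 genes matched by symbol; GMFB was not matched. Intervals and limits at 3 counts cover counting error only.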

Additional observations from a re-analysis of the deposited data

How the results depend on the processing

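Of 104 log2FC values of the 8 genes under the alternatives, 103 kept their direction and their side of the threshold. Of 30 values of the family shares, 21 moved by less than 1 SD, and all 104 counts of called genes stayed within 1.5 times. Over the 13 alternatives of the fit, the log2FC ranged from 1.98 to 2.06 for LCP1, 2.26 to 2.35 for GMFG, 0.55 to 0.79 for CORO1A, -0.56 to -0.47 for GMFB, -0.40 to -0.28 for PLS1, -0.19 to -0.11 for PLS3 and -0.20 to -0.14 for CORO1C. The log2FC of CORO1B, which passed the threshold in none of them, was 0.019 under library totals in place of TMM scaling. Without length scaling, the LCP1 share of plastins was 33.4% in control and 69.7% in PELP1-KD cells, the GMFG share 2.44% and 15.1%, and the CORO1A share 0.512% and 0.916%, as follows from the unequal transcript lengths. With the length of all exons joined in place of 1 transcript, an alternative chosen after seeing the data, the GMFG share in control cells was 11.8% and the CORO1A share 0.659% and 1.17%. Over genes with enough reads, control replicate 1 differed more from control replicates 2 and 3 than those did from each other. The chi-square per degree of freedom was 3.87 and 4.11 against 1.47. PELP1-KD replicate 2 likewise stood apart from replicates 1 and 3 (2.7 and 2.7 against 1.5). Without control replicate 1 the log2FC was -0.47 for GMFB and -0.28 for PLS1. Without PELP1-KD replicate 2 it was 0.55 for CORO1A. Same-numbered replicates did not deviate together (correlations 0.04, 0.07 and -0.08). In so few libraries this cannot show whether the samples were handled in pairs, and the labels do not say. With the replicate block the log2FC was 2.01 for LCP1, 2.30 for GMFG and 0.70 for CORO1A. The 7 called genes kept their calls under it. Over all tested genes the counts went from 2904 to 3140 higher and from 3103 to 3335 lower. Under library totals these were 3817 and 2418. DESeq2 called 2290 higher and 2670 lower. Depth limits CORO1A, with 78 to 179 reads per library, and VAV1, with at most 30.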

Other observations

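Genes that lie beside the leukocyte forms on the chromosome were read for the same contrast, 3 coding genes on each side in RefSeq order. Around LCP1, LRCH1 rose (38.7 CPM ± 0.808 to 44.5 CPM ± 2.81, SD, n = 3; log2FC 0.20, standard error 0.058, adjusted p = 0.0067 in edgeR), ZC3H13 did not pass (log2FC 0.05), and SIAH3, CPB2 and KIAA0226L were too low to be tested. LRCH1 and ZC3H13 thus lay far below the log2FC of 2.01 of LCP1. LRRC63 was not analysed here.

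Around GMFG, LRFN1 rose from 1.62 CPM ± 0.619 to 3.47 CPM ± 0.394 (SD, n = 3; log2FC 1.04, standard error 0.21, adjusted p = 0.000435 in edgeR). SAMD4B (log2FC -0.05), PAF1 (0.02) and MED29 (0.08), on the other side, did not pass, and the interferon lambda genes IL28A and IL29 had no read in any library. Around CORO1A, YPEL3 rose from 6.20 CPM ± 1.08 to 13.3 CPM ± 1.48 (SD, n = 3; log2FC 1.08, standard error 0.12, adjusted p = 2.62e-07 in edgeR), a greater log2FC than that of CORO1A itself. MAPK3 (log2FC 0.02) and GDPD3 (0.17) did not pass. BOLA2B, SLX1A and SULT1A3 were listed at 0 in every library; each has a near-identical copy elsewhere on chromosome 16, and reads that align to several places were not counted.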
